A study of Mus musculus with 24 samples.

Results

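The 40 cell cycle and proliferation genes described here were taken by gene symbol from the 56899 entries of the 8 deposited comparison tables, and all 40 symbols were found. They cover the machinery that copies DNA and the machinery that separates the chromosomes. RNA was sequenced from retroperitoneal adipose tissue, a white fat depot behind the abdominal cavity, of C57BL/6JRJ mice that had been fasted overnight, with 3 mice in each of 8 groups and 24 libraries of polyadenylated RNA in all. The mothers ate AIN-93G diet whose vitamin D3 was either 1.0 IU/g (CTRL) or 0.0 IU/g (VDD) for 8 weeks and were then mated, and all mothers returned to the CTRL diet after birth until weaning. From 6 weeks of age the male and female offspring received for 8 weeks either a low fat diet (LF, AIN-93M) or a high fat diet with 45% of its energy from fat (HF). The 8 groups were thus CTRL LF, CTRL HF, VDD LF and VDD HF in each sex. The study asked how the mother's vitamin D and the offspring's diet act on this tissue. The sources used here do not say whether mice of a group came from different litters, so that the p-values below measure the spread between these mice only. The pairs of groups compared below share libraries with one another and are not independent of each other.

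A cell that divides first loads the MCM helicase onto replication origins, then copies its DNA with the sliding clamp PCNA and a supply of deoxynucleotides, and finally builds a spindle, aligns its chromosomes and cuts itself apart. Cyclins paired with cyclin-dependent kinases drive these steps, E2F factors switch on the genes of DNA synthesis, and FOXM1 together with other factors switches on the genes of mitosis. Mature adipocytes rarely divide, and in obese adipose tissue the dividing cells known from the literature are mostly adipocyte progenitors, macrophages and endothelial cells.

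Between 13346779 and 18484346 reads per library were assigned to genes. All libraries expressed the adipocyte markers Adipoq (44740 to 109716 normalized reads) and Plin1 (9362 to 30585), where normalized reads are reads divided by a size factor of the library. Some libraries also held RNA of genes typical of other tissues. The summed level of 10 skeletal muscle genes exceeded 10000 normalized reads in 9 libraries and reached 1050100 in VDD LF male 2310. That of 8 adrenal genes exceeded 5000 in CTRL HF females 2290 and 2292 and VDD HF female 2121. Cyp11b1, a gene of the adrenal list, had at most 11.9 normalized reads in any library and no read in 17 libraries. The name adrenal-rich below therefore stands for this list and not for a tissue shown to be present. The sum of 10 B cell genes exceeded 20000 in CTRL LF male 2296 and CTRL HF female 2291. In CTRL HF females the sum of 8 ovary and uterus genes was 1459 to 5535, against 491 to 650 in CTRL LF females, and it was 2796 in VDD HF female 2121. The sum of 10 kidney genes was 9548 in the muscle-rich VDD LF female 2303 and at most 584 in the others. Counts and medians of the 40 genes are given with and without the libraries rich in muscle, adrenal or B cell genes where these moved them. Counts from any fit that leaves out libraries stand without the share of all genes in that fit. They show how far a count depends on the libraries and are no result about the 40 genes alone. Leaving out the adrenal-rich libraries kept 1 CTRL HF female (2291, the B cell-rich library), and leaving out the muscle-rich libraries kept 1 VDD LF and 1 VDD HF male. In such fits the lone library is assumed to vary like the other groups, and a count that falls there says little.

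The cell cycle genes were expressed at low levels in this tissue. Per length (RPKM, reads on the gene divided by exon length and by the reads of the library), the median over the 24 libraries was highest for Pcna at 12.9, followed by the helicase subunits Mcm7 at 6.24, Mcm4 at 3.63 and Mcm6 at 2.94, and lowest for Kif11 at 0.189 and the kinetochore protein gene Cenpf at 0.130. The 5 genes highest per length were thus Pcna, 3 helicase subunits and E2f1 (2.57), whereas the genes of mitosis lay between 1.40 (Ccnb2) and 0.130. In 12 of the 40 genes at least 1 library had under 10 normalized reads, and every gene had at least 1 read in every library. All 40 passed the filter of 10 normalized reads in 3 libraries over the 24 libraries.

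Most of these genes went up and down together from mouse to mouse. The correlation of a gene's log2 level with the mean of the other 39 over the 24 libraries, which share their scaling, was above 0.8 for 28 genes, with Top2a, Ccna2 and Prc1 at 0.98, 0.98 and 0.97. It was below 0.5 for 5 genes, namely Pcna (0.39), Cdc45 (0.23), Ccne1 (0.11), Ccne2 (0.09) and Mcm7 (-0.29). Within the groups, 17 genes still had a correlation above 0.8, so that mice of the same group differed in the level of these genes together. Other genes did not join, such as E2f1 (0.02), Cdc45 (0.03) and Ccne1 (-0.33). The map of the 40 genes shows the shared part as columns of one colour over most rows.

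**Figure D1:**
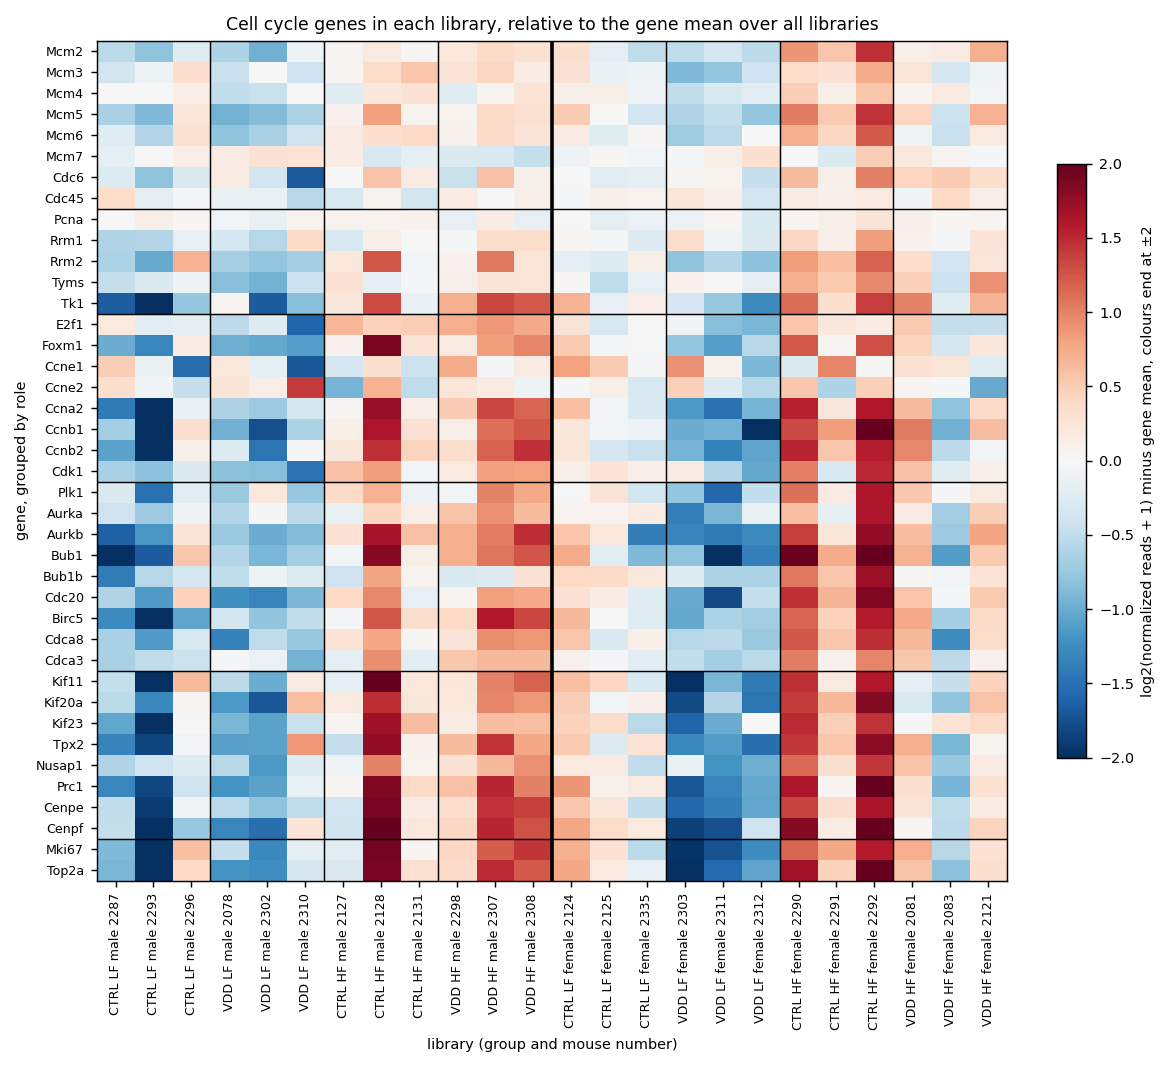
Level of the 40 cell cycle genes (rows, grouped by role: origin licensing, replication and nucleotides, regulators, mitotic kinases and checkpoint, spindle and cytokinesis, chromatin) in the 24 libraries (columns, by group and mouse number; the thick line separates males from females). Colour gives log2(normalized reads + 1) minus the gene's mean over all libraries, ending at ±2. CTRL HF male 2128 and CTRL HF females 2290 and 2292 have the highest means over the 40 genes (6.98, 6.97 and 7.30) and are red over most rows. Among HF males, CTRL HF males 2127 (5.95) and 2131 (6.07) have the lowest means. Mcm7, Pcna and Cdc45 stay pale.

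Promoters of cell cycle genes are known for a few short elements, which were looked for because most of the genes moved together. RefSeq (GRCm38.p6) gave a window from 250 bases before to 50 bases after the start site for 33 of the 40 genes, and none for Mcm4, Ccne2, Ccna2, Tpx2, Aurkb, Kif20a and Foxm1. The elements searched on both strands were the CCAAT box (CCAAT or ATTGG), the cell cycle genes homology region CHR (TTTGAA or TTCAAA), and an E2F element (TTTCCCGC, TTTGGCGC, TTTCGCGC or their reverse complements, which can overlap each other). The 150 bases before the start site are shown for 4 genes of mitosis and, for contrast, 2 genes of DNA synthesis, which were chosen after the values had been seen. They come from chr10:69352913-69353062 (minus strand) for Cdk1, chr11:99024190-99024339 (minus) for Top2a, chr19:37376232-37376381 (plus) for Kif11, chr4:118437344-118437493 (minus) for Cdc20, chr1:128359706-128359855 (minus) for Mcm6 and chr7:102441545-102441694 (plus) for Rrm1. Capitals mark the elements:
Cdk1: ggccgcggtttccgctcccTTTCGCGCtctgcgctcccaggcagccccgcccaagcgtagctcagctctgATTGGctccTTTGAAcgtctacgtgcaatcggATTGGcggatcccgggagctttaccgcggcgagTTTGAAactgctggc
Top2a: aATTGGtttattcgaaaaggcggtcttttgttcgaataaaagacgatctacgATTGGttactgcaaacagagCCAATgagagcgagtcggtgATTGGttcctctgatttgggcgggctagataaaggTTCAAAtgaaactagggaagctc
Kif11: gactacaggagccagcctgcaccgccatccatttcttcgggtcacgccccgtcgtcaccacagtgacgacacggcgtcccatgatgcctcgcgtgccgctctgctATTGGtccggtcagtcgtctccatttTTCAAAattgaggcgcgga
Cdc20: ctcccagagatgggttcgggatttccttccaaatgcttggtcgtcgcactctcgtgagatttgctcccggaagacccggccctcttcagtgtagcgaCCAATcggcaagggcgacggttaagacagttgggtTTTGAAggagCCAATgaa
Mcm6: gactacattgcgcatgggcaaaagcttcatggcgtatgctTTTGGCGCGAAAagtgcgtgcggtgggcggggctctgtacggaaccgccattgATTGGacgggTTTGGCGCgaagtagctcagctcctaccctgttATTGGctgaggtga
Rrm1: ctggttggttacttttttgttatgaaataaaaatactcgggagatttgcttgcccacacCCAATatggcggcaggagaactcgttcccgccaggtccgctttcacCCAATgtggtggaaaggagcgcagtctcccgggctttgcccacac
The 4 mitotic promoters hold a CHR and 1 to 4 CCAAT boxes in the stretch shown, and Cdk1 an E2F element as well. Mcm6 holds E2F elements and CCAAT boxes but no CHR, and Rrm1 holds CCAAT boxes as its only element. Over the windows of the 33 genes, 26 (78.8%) held a CCAAT box, 16 (48.5%) a CHR and 6 (18.2%) an E2F element, against 37.4%, 17.9% and 1.84% of all 32851 promoter windows. All 16 genes with a CHR also had a CCAAT box, a pair that 6.95% of all windows held. Of 19 genes of mitosis 14 (73.7%) had a CHR and 1 (5.26%) an E2F element, and of 12 genes of licensing, replication and nucleotide supply 2 (16.7%) had a CHR and 5 (41.7%) an E2F element. A match is a description of letters and not a site of binding.

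In males, the HF diet went with higher RNA of the cell cycle, most clearly in genes of mitosis. In a fit over the 12 male libraries that averages the HF minus LF difference over both maternal groups, 38 of the 40 genes were higher under HF, with a median log2 difference of 1.17 against -0.003 over all 16925 genes tested. At an adjusted p below 0.01 and a fold change above 1.5 (limma with Benjamini-Hochberg adjustment), 8 of the 40 genes were called, all higher, compared with 6.91% of all genes called in either direction. These were Cdk1, Birc5, Cdca8, E2f1, Aurkb, Tk1, Prc1 and Ccna2. At an adjusted p below 0.05 it was 27 genes higher and 1 lower (Mcm7), where 11.4% of all genes were higher, and at an unadjusted p below 0.05 it was 33 higher, where 18.5% of all genes were. In 11 of the 40 genes each of the 6 HF males was above each of the 6 LF males, which held for 4.91% of all genes. Without CTRL LF male 2296 there were 15 calls and without VDD LF male 2310 there were 14, without any other single male between 1 and 4, with 1 call without CTRL HF male 2128, VDD HF male 2307 or VDD HF male 2308. Without the 5 male libraries rich in muscle genes, which left 1 library in each VDD male group, no gene was called, 6 had an adjusted p below 0.05 and 26 an unadjusted p below 0.05 in the higher direction, and the median difference was 1.33.

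**Figure D2:**
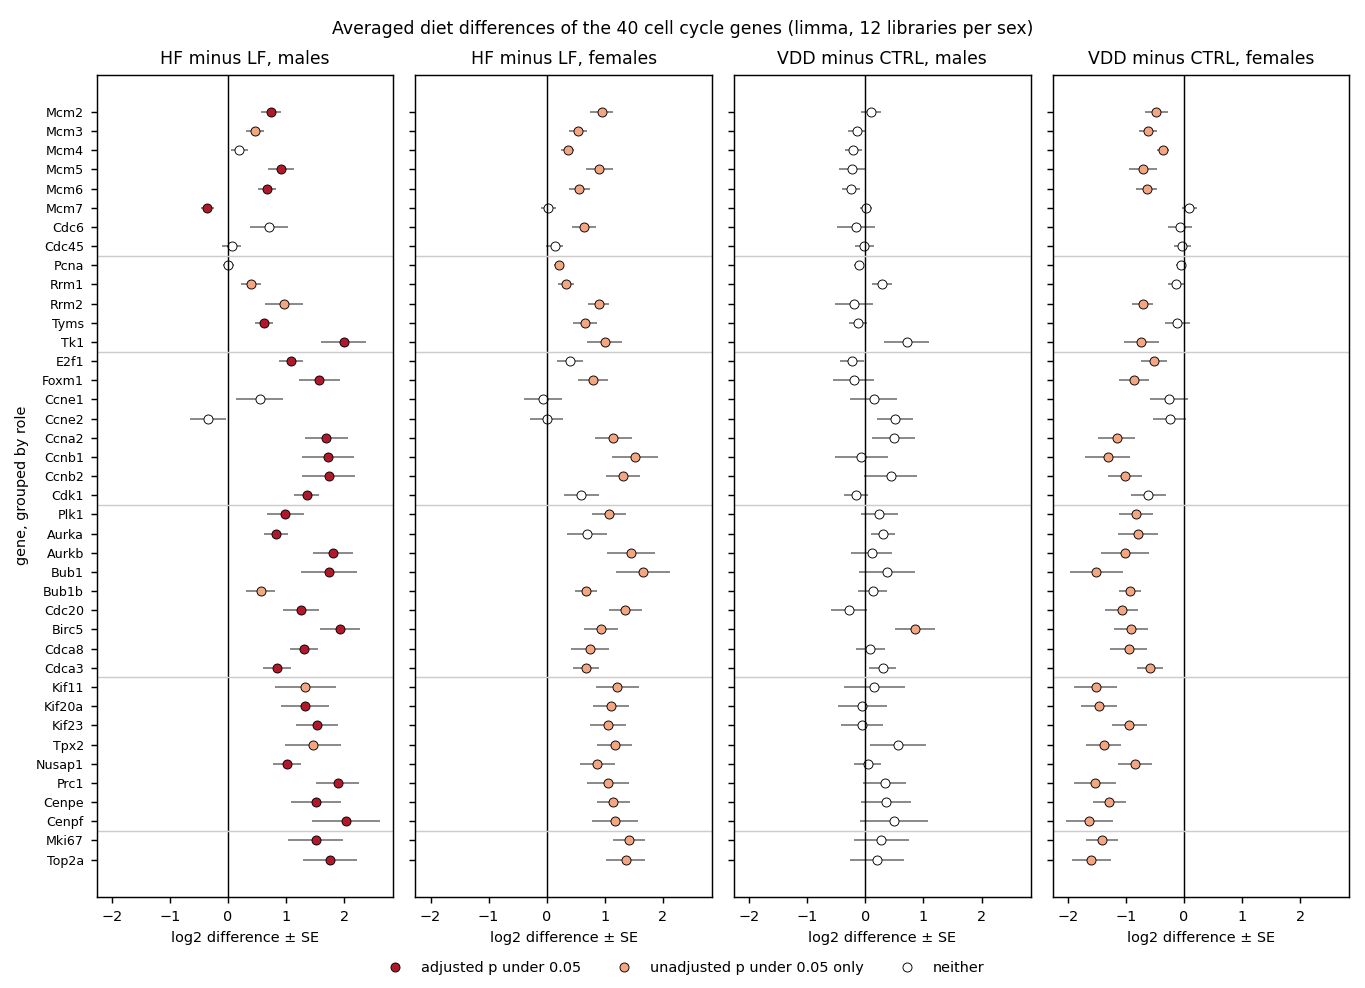
Log2 difference of each of the 40 genes (rows, grouped by role) with its standard error (bars), averaged over the other diet factor, from limma fits over the 12 libraries of each sex: HF minus LF in males and females, and VDD minus CTRL in males and females. Dark points have an adjusted p below 0.05 and light points an unadjusted p below 0.05 only; in males most HF differences lie between 0.5 and 2 and the VDD differences lie around 0, whereas in females the HF differences are mostly above 0 and the VDD differences mostly below 0.

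Of the regulators, Cdk1, the kinase that starts mitosis, had 48.6, 55.1 and 70.9 normalized reads in CTRL LF, 30.4, 47.5 and 48.7 in VDD LF, 83.98, 131 and 156 in CTRL HF and 99.1, 153 and 154 in VDD HF males. All 6 HF males were above all 6 LF males, with a log2 difference of 1.35 ± 0.21 (adjusted p = 0.0021), the smallest p of the 40 genes. Its partners were higher too. Ccna2, the cyclin of S phase and of entry into mitosis, had 16.2, 24.8 and 61.8 normalized reads in males of the CTRL LF group, 40.6, 43.6 and 52.7 in VDD LF, 70.6, 74.2 and 227 in CTRL HF and 96.3, 153 and 172 in VDD HF, again without overlap and with a difference of 1.70 ± 0.37 (adjusted p = 0.0091). Ccnb1, a mitotic cyclin, had 4.99, 15.8 and 32.7 normalized reads (CTRL LF), 6.93, 12.8 and 16.4 (VDD LF), 28.00, 32.2 and 81.5 (CTRL HF) and 28.1, 56.9 and 62.3 (VDD HF) in males. Here CTRL LF male 2296 lay among the HF males, and the difference was 1.73 ± 0.45 (adjusted p = 0.021). Ccnb2, the other mitotic cyclin of the set, had 4.99, 15.8 and 37.3 normalized reads in CTRL LF, 11.9, 28.2 and 33.9 in VDD LF, 40.3, 47.4 and 96.00 in CTRL HF and 43.96, 78.9 and 96.04 in VDD HF males, with every HF male above every LF male and a difference of 1.73 ± 0.45 (adjusted p = 0.021).

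The transcription factors followed. E2f1, which switches on genes of DNA synthesis, had 107, 110.0 and 143 normalized reads in males of the CTRL LF group, 40.95, 87.1 and 105 in VDD LF, 173, 177 and 198 in CTRL HF and 208, 212 and 230.0 in VDD HF, with a log2 difference of 1.09 ± 0.21 (adjusted p = 0.0052) and no overlap between diets. Foxm1, which drives genes of mitosis, had 16.2, 20.3 and 46.4 normalized reads (CTRL LF), 18.7, 19.8 and 20.50 (VDD LF), 43.7, 50.03 and 155 (CTRL HF) and 46.8, 74.7 and 82.2 (VDD HF) in males. The highest value came from CTRL HF male 2128, the highest LF value was from CTRL LF male 2296, and the difference was 1.57 ± 0.35 (adjusted p = 0.010). The cyclins of S phase entry did not join in: Ccne1 differed by 0.55 ± 0.40 and Ccne2 by -0.34 ± 0.31, neither with an unadjusted p below 0.05. Ccne2 was the only regulator with a lower mean under HF. It had 40.9, 53.6 and 72.03 normalized reads in CTRL LF, 62.4, 67.9 and 151 in VDD LF, 29.1, 39.3 and 92.4 in CTRL HF and 52.8, 63.6 and 67.3 in VDD HF males, and the ranges of the diets overlapped.

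All 9 genes of the mitotic kinases and the spindle checkpoint were higher under HF at an unadjusted p below 0.05, with differences from 0.56 to 1.92. Birc5, the survivin subunit of the chromosomal passenger complex, had 4.99, 14.6 and 17.3 normalized reads in males of the CTRL LF group, 20.8, 25.7 and 28.2 in VDD LF, 35.8, 47.4 and 88.8 in CTRL HF and 48.6, 94.3 and 114 in VDD HF. The lowest HF male was above the highest LF male, and the difference was 1.92 ± 0.34 (adjusted p = 0.0039). The kinase of the same complex, Aurkb, had 7.88, 11.2 and 31.8 normalized reads (CTRL LF), 12.9, 14.04 and 15.4 (VDD LF), 32.5, 40.2 and 85.1 (CTRL HF) and 43.96, 55.2 and 75.3 (VDD HF) in males. The difference was 1.81 ± 0.35 (adjusted p = 0.0054). Its subunit borealin, Cdca8, had 14.97, 21.4 and 27.3 normalized reads in CTRL LF, 12.8, 19.9 and 23.8 in VDD LF, 34.8, 41.4 and 58.9 in CTRL HF and 41.2, 63.2 and 66.2 in VDD HF males. The difference was 1.31 ± 0.25 (adjusted p = 0.0050). All 3 subunits of this complex among the 40 genes thus passed the test. Cdc20, an activator of the anaphase-promoting complex, had 13.7, 20.3 and 43.6 normalized reads in males of the CTRL LF group, 11.9, 12.8 and 16.4 in VDD LF, 27.7, 41.4 and 61.6 in CTRL HF and 32.7, 53.6 and 56.01 in VDD HF. The difference was 1.26 ± 0.31 (adjusted p = 0.016). Aurka, a centrosome kinase, had 16.2, 20.3 and 25.5 normalized reads (CTRL LF), 17.9, 18.7 and 26.7 (VDD LF), 24.6, 30.4 and 37.1 (CTRL HF) and 41.2, 43.3 and 52.6 (VDD HF) in males. The difference was 0.82 ± 0.21 (adjusted p = 0.018). In Cdc20, CTRL LF male 2296 exceeded 3 of the 6 HF males, and in Aurka 1 HF male lay below the highest LF male. The smallest difference of this group was that of the checkpoint kinase gene Bub1b, 0.56 ± 0.25 (adjusted p = 0.14), with 29.3, 52.4 and 60.9 normalized reads in CTRL LF, 55.1, 64.4 and 73.3 in VDD LF, 58.2, 82.2 and 136 in CTRL HF and 63.6, 65.3 and 96.04 in VDD HF males. Plk1, Bub1 and Cdca3 lay between 0.84 and 1.74.

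The 8 genes of the spindle, the kinetochore and cytokinesis were likewise all higher at an unadjusted p below 0.05, from 1.02 for Nusap1 to 2.03 for Cenpf, with a median of 1.49. Prc1, which bundles microtubules at the midzone of the dividing cell, was called. It had 13.7, 20.3 and 38.2 normalized reads in males of the CTRL LF group, 21.8, 23.8 and 46.8 in VDD LF, 52.6, 67.01 and 187 in CTRL HF and 77.6, 104 and 149 in VDD HF, without overlap and with a difference of 1.89 ± 0.37 (adjusted p = 0.0057). Cenpe, a kinetochore motor, had 8.73, 24.8 and 33.6 normalized reads (CTRL LF), 19.8, 24.3 and 24.6 (VDD LF), 26.9, 39.3 and 135 (CTRL HF) and 44.9, 92.6 and 97.6 (VDD HF) in males. The difference was 1.52 ± 0.43 (adjusted p = 0.028). Kif20a, a motor of cytokinesis, had 16.2, 28.1 and 42.7 normalized reads in CTRL LF, 11.9, 17.9 and 63.2 in VDD LF, 47.04, 48.2 and 116 in CTRL HF and 47.7, 76.1 and 82.3 in VDD HF males. The difference was 1.33 ± 0.42 (adjusted p = 0.043). The 2 chromatin genes were at similar differences. Mki67, the proliferation marker that coats mitotic chromosomes, had 39.9, 88.9 and 248 normalized reads in males of the CTRL LF group, 66.4, 118 and 143 in VDD LF, 142, 169 and 621 in CTRL HF and 219.8, 382 and 441 in VDD HF. It differed by 1.51 ± 0.47 (adjusted p = 0.043). Top2a, which untangles sister chromatids, had 22.4, 57.4 and 144 normalized reads (CTRL LF), 45.6, 47.4 and 86.6 (VDD LF), 89.6, 135 and 409 (CTRL HF) and 143, 257 and 308 (VDD HF) in males. It differed by 1.76 ± 0.47 (adjusted p = 0.023). In both, CTRL LF male 2296 lay above some HF males, and CTRL HF male 2128 had the highest value of the males.

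The genes of DNA synthesis were split. Of the 8 genes of origin licensing and firing, 4 were higher at an unadjusted p below 0.05 and 1 was lower, with a median of 0.57. Mcm2, a helicase subunit, had 48.6, 58.5 and 71.8 normalized reads in CTRL LF, 43.6, 55.1 and 79.6 in VDD LF, 86.7, 88.5 and 96.9 in CTRL HF and 99.1, 106 and 112 in VDD HF males, with all HF males above all LF males and a difference of 0.74 ± 0.17 (adjusted p = 0.013). Mcm5 had 36.2, 42.8 and 80.00 normalized reads in males of the CTRL LF group, 34.6, 36.6 and 43.3 in VDD LF, 70.6, 71.7 and 120.5 in CTRL HF and 71.1, 83.1 and 88.3 in VDD HF. The difference was 0.91 ± 0.22 (adjusted p = 0.017). Mcm6 had 137, 174 and 255 normalized reads (CTRL LF), 118, 131 and 156 (VDD LF), 232, 259 and 272 (CTRL HF) and 218, 246 and 269 (VDD HF) in males. The difference was 0.67 ± 0.16 (adjusted p = 0.013). In Mcm5 and Mcm6 the highest LF male lay above 3 of the 6 HF males. Mcm7, a subunit of the same ring, went the other way. It had 386, 437 and 477 normalized reads in CTRL LF, 487, 528 and 534 in VDD LF, 347, 382 and 485 in CTRL HF and 314, 350.5 and 354 in VDD HF males, and its difference was -0.36 ± 0.11 (adjusted p = 0.039), with the lowest mean in VDD HF and the highest in VDD LF males. Cdc45, which joins the helicase as it starts to move, differed by 0.06 ± 0.16, and Mcm4 by 0.20 ± 0.14.

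Among replication and nucleotide genes, Pcna, the sliding clamp, had no difference that passed a test. It had 505, 522 and 549 normalized reads in males of the CTRL LF group, 461, 489 and 532 in VDD LF, 532, 534 and 538 in CTRL HF and 454, 454 and 563 in VDD HF, and the difference was 0.00 ± 0.09 (adjusted p = 0.98). Tk1, thymidine kinase of the salvage pathway, stood at the other end with 4.99, 9.003 and 17.3 normalized reads (CTRL LF), 8.91, 16.4 and 32.03 (VDD LF), 27.7, 35.8 and 76.1 (CTRL HF) and 50.5, 72.7 and 78.1 (VDD HF) in males, where 1 VDD LF male exceeded 1 CTRL HF male, and with a difference of 1.99 ± 0.38 (adjusted p = 0.0055). Tyms, which makes thymidylate, had 57.4, 66.1 and 75.5 normalized reads in CTRL LF, 41.6, 44.8 and 59.7 in VDD LF, 70.6, 78.6 and 98.6 in CTRL HF and 86.98, 95.2 and 96.7 in VDD HF males. The difference was 0.62 ± 0.16 (adjusted p = 0.018). Rrm2, the regulated subunit of ribonucleotide reductase, had 24.9, 32.6 and 83.6 normalized reads in males of the CTRL LF group, 29.7, 31.6 and 32.03 in VDD LF, 49.1, 59.4 and 122 in CTRL HF and 54.2, 60.6 and 108 in VDD HF. CTRL LF male 2296 was again high, and the difference was 0.97 ± 0.33 (adjusted p = 0.057). Rrm1, the large subunit of the same enzyme, had 209, 211 and 285 normalized reads (CTRL LF), 214, 249 and 414 (VDD LF), 256, 319.8 and 343 (CTRL HF) and 313, 406 and 408 (VDD HF) in males. The difference was 0.40 ± 0.17 (adjusted p = 0.13). The plot of 12 genes shows the values of every mouse.

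**Figure D3:**
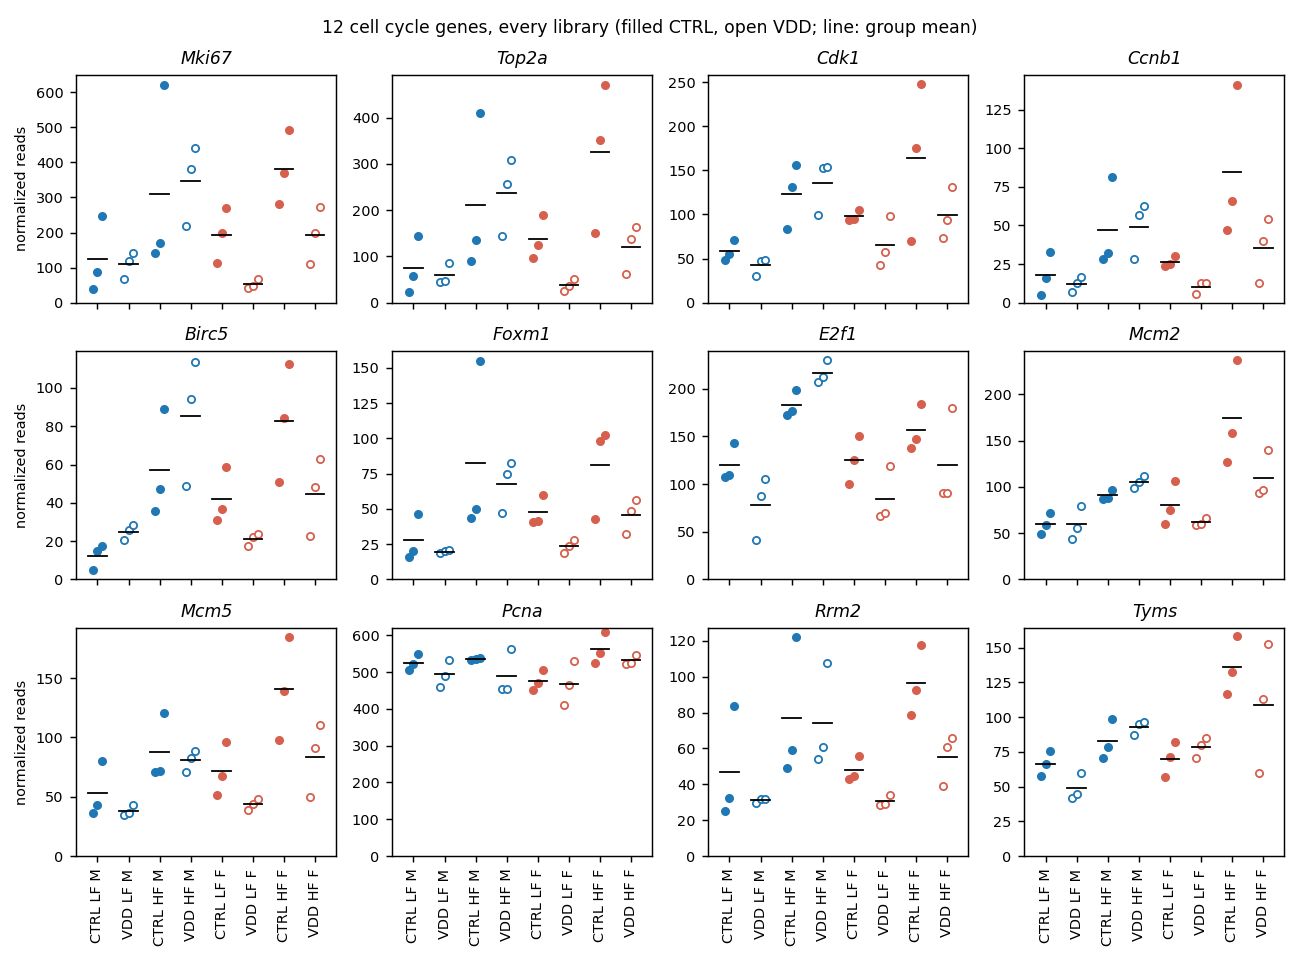
Normalized reads (linear axes from 0) of 12 cell cycle genes in every library: males blue, females red, offspring of CTRL mothers filled, of VDD mothers open, lines at the group means, the 3 mice of a group ordered by value. The means of Mki67, Top2a, Ccnb1 and Birc5 are higher in the HF than in the LF male groups and lowest among females in VDD LF, whereas Pcna lies between 409.5 and 609.8 in every library.

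The male difference was also compared within each maternal group. Between CTRL LF and CTRL HF males 37 of 40 genes were higher under HF and 20 had an unadjusted p below 0.05, all higher, against 10% of all genes. The median log2 difference was 0.94. None was called (0.0578% of all genes were), and the smallest adjusted p were 0.078 for Birc5 (2.17 ± 0.51), 0.093 for Tk1 (2.06 ± 0.52) and 0.10 for Prc1 (1.92 ± 0.51). The count of 20 was 7 without CTRL HF male 2128 and 10 without CTRL LF male 2293. Between VDD LF and VDD HF males 37 of 40 were higher, with 28 at an unadjusted p below 0.05 in that direction (13.7% of all genes) and a median of 1.27. None was called (0.0752% of all genes), but 8 were higher at an adjusted p below 0.05 against 3.00% of all genes, led by Aurkb (1.94 ± 0.31, adjusted p = 0.028), Foxm1 (1.70 ± 0.31, adjusted p = 0.036) and Ccna2 (1.57 ± 0.28, adjusted p = 0.036), and Mcm7 was lower (-0.60 ± 0.12, adjusted p = 0.049). The 8 genes became 24 without VDD LF male 2310 and 0 without any other of these 6 males. Without the libraries whose column names hold the word renal, the 28 became 11.

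The test of whether the diet difference itself depends on the mother's diet called no male gene, as it called 0% of all genes. The median of the 40 interaction terms was 0.25, and 2 had an unadjusted p below 0.05. This is about as many as that threshold lets through where there is no interaction, so the genes named next are not shown to differ. E2f1 had a larger difference in offspring of VDD mothers (interaction 0.96 ± 0.42, unadjusted p = 0.041, limma), and Mcm7 a more negative one (-0.50 ± 0.22, unadjusted p = 0.042). Tyms came next (0.63 ± 0.31, unadjusted p = 0.070).

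In females, the cell cycle genes were also higher under HF, but no single gene passed the adjusted test and the differences were smaller without the adrenal-rich libraries. Averaged over both maternal groups, 38 of 40 genes were higher, with a median log2 difference of 0.90 against 0.016 over all 17430 genes. At an unadjusted p below 0.05, 33 were higher (10.5% of all genes). None was called, as were 0% of all genes, and none had an adjusted p below 0.05. Only Cdc6, which loads the helicase, had all 6 HF females above all 6 LF females, where 0.568% of all genes did. Without VDD HF female 2083, 21 genes had an adjusted p below 0.05, and without VDD LF female 2312, 2 had. The share of all genes in these fits is not given, so whether the 40 genes rose apart from the others there is left unsaid. Without the 3 libraries rich in adrenal genes, which left 1 CTRL HF female, the median was 0.48 and 5 genes had an unadjusted p below 0.05. The part of adrenal, ovary or other tissue in this result was not tested. Genes of some other cell types were higher in the same females. Of 10 stromal progenitor genes all were higher under HF and 4 had an unadjusted p below 0.05, of 10 macrophage genes 9 and 4, and of the 7 ovary and uterus genes tested 6 and 2, beside the 10.5% of all genes. The summed stromal genes reached 33059 to 50957 normalized reads in CTRL LF and 67131 to 87385 in CTRL HF females, and 25920 to 29674 in VDD LF and 18748 to 46066 in VDD HF females. The summed macrophage genes reached 6377 to 8897 and 13134 to 15933 in the CTRL groups, and 5341 to 10412 and 6286 to 24164 in the VDD groups. The stromal and macrophage ranges of LF and HF thus did not overlap in offspring of CTRL mothers and did in those of VDD mothers. The summed endothelial genes reached 13143 to 15259 in CTRL LF and 9859 to 14755 in CTRL HF females, with a lower median under HF (13258 against 14958). They reached 9002 to 13350 in VDD LF and 10863 to 15976 in VDD HF females, with a higher median under HF (11687 against 9744). The part of these cells in the result was not tested.

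The smallest p belonged to Mki67, which had 112, 199.9 and 269 normalized reads in CTRL LF, 41.3, 48.1 and 67.9 in VDD LF, 281, 369 and 492 in CTRL HF and 111, 199.7 and 272 in VDD HF females. CTRL HF females were the highest group and VDD LF females the lowest, and VDD HF females covered the range of CTRL LF females. The averaged difference was 1.41 ± 0.27 (adjusted p = 0.052). Next came Rrm2 with 42.8, 44.9 and 55.97 normalized reads in females of the CTRL LF group, 28.7, 28.8 and 34.01 in VDD LF, 78.6, 92.3 and 118 in CTRL HF and 39.2, 60.7 and 65.5 in VDD HF. The difference was 0.89 ± 0.18 (adjusted p = 0.058). Cdc20 followed with 26.2, 34.8 and 38.5 normalized reads (CTRL LF), 8.21, 15.03 and 22.4 (VDD LF), 50.8, 87.5 and 116 (CTRL HF) and 30.4, 45.3 and 46.3 (VDD HF) in females. The difference was 1.35 ± 0.28 (adjusted p = 0.059). In both genes CTRL HF again had the highest and VDD LF the lowest mean. Top2a had 97.7, 125 and 188 normalized reads in CTRL LF, 26.3, 36.4 and 51.9 in VDD LF, 151, 352 and 471 in CTRL HF and 61.8, 138 and 163 in VDD HF females. The difference was 1.36 ± 0.33 (adjusted p = 0.076).

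In the regulators named here, too, CTRL HF had the highest and VDD LF the lowest mean, with wide spread. Cdk1 had 93.8, 95.3 and 105 normalized reads in females of the CTRL LF group, 42.3, 57.5 and 97.7 in VDD LF, 69.9, 175 and 248 in CTRL HF and 73.5, 93.7 and 131 in VDD HF, and its difference of 0.60 ± 0.31 had an unadjusted p of 0.078. Ccnb1 had 23.8, 24.9 and 30.5 normalized reads (CTRL LF), 5.59, 12.5 and 12.9 (VDD LF), 46.9, 65.7 and 141 (CTRL HF) and 12.7, 40.1 and 53.98 (VDD HF) in females. The difference was 1.52 ± 0.39 (adjusted p = 0.081). In CTRL HF females the 2 adrenal-rich libraries gave the 2 highest Cdk1 and Ccnb1 values. Ccnb2 had 25.01, 26.9 and 40.9 normalized reads in CTRL LF, 12.9, 15.97 and 17.5 in VDD LF, 50.8, 101 and 104 in CTRL HF and 23.5, 32.9 and 68.1 in VDD HF females. The difference was 1.32 ± 0.29 (adjusted p = 0.069). Ccna2 had 54.8, 64.7 and 103 normalized reads in females of the CTRL LF group, 23.5, 30.1 and 35.1 in VDD LF, 79.5, 198 and 206 in CTRL HF and 38.2, 88.5 and 105 in VDD HF. The difference was 1.15 ± 0.32 (adjusted p = 0.091). Foxm1 had 40.8, 41.7 and 60.1 normalized reads (CTRL LF), 18.8, 23.8 and 27.9 (VDD LF), 43.1, 97.8 and 103 (CTRL HF) and 32.4, 48.4 and 56.5 (VDD HF) in females. The difference was 0.80 ± 0.26 (adjusted p = 0.12). In Ccnb1, Ccnb2, Ccna2 and Foxm1 the lowest HF female was VDD HF female 2083. E2f1 had 100.5, 125 and 151 normalized reads in CTRL LF, 66.3, 69.2 and 119 in VDD LF, 138, 148 and 184 in CTRL HF and 90.2, 90.6 and 179.9 in VDD HF females, where each diet's range held most of the other's, and a difference of 0.40 ± 0.22 (adjusted p = 0.32).

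Among the genes of DNA synthesis Mcm2 had 59.5, 74.6 and 107 normalized reads in females of the CTRL LF group, 59.1, 60.1 and 66.9 in VDD LF, 126, 159 and 237 in CTRL HF and 93.8, 96.1 and 140.0 in VDD HF. The difference was 0.95 ± 0.20 (adjusted p = 0.059). Mcm5 had 51.2, 67.6 and 96.2 normalized reads (CTRL LF), 39.1, 43.8 and 48.1 (VDD LF), 97.7, 139.5 and 185 (CTRL HF) and 50.01, 91.2 and 110.1 (VDD HF) in females. The difference was 0.91 ± 0.24 (adjusted p = 0.086). Tyms had 56.7, 71.5 and 81.8 normalized reads in CTRL LF, 70.3, 79.8 and 85.2 in VDD LF, 117, 133 and 158 in CTRL HF and 59.8, 113 and 152 in VDD HF females. The difference was 0.66 ± 0.21 (adjusted p = 0.12), and 1 VDD HF female lay among the LF females. Pcna was higher under HF at an unadjusted p of 0.028, by 0.22 ± 0.09. It had 451, 469 and 504 normalized reads in females of the CTRL LF group, 409.5, 466 and 530.1 in VDD LF, 524, 553 and 609.8 in CTRL HF and 523, 524 and 547 in VDD HF. Birc5, of the chromosomal passenger complex, had 30.96, 36.8 and 58.5 normalized reads (CTRL LF), 17.5, 22.4 and 23.5 (VDD LF), 50.8, 84.1 and 113 (CTRL HF) and 22.6, 48.4 and 62.97 (VDD HF) in females. The difference was 0.94 ± 0.29 (adjusted p = 0.12). By role, the medians were 1.13 for spindle and cytokinesis, 0.94 for mitotic kinases and checkpoint, 0.70 for regulators, 0.66 for replication and nucleotides and 0.55 for licensing, and in males 1.49, 1.26, 1.46, 0.62 and 0.57 in the same order.

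Between CTRL LF and CTRL HF females 39 of 40 genes were higher under HF and 24 had an unadjusted p below 0.05 in that direction (14.4% of all genes), with a median of 0.92. None was called (0% of all genes), but Tyms (0.93 ± 0.21, adjusted p = 0.041) and Rrm2 (0.96 ± 0.22, adjusted p = 0.046) had an adjusted p below 0.05, as had 3.24% of all genes in the higher direction, and Ccnb2 followed (1.38 ± 0.34, adjusted p = 0.053). The count of 24 was 9 without CTRL HF female 2292, 12 without CTRL HF female 2290 or CTRL LF female 2335, 15 without CTRL LF female 2125 and 5 without the muscle-rich libraries, where the median was 0.45. Without both adrenal-rich libraries the median was 0.25, and the count was 0 in a fit with 1 CTRL HF female left. Without CTRL HF female 2291, the B cell-rich library, 16 genes had an adjusted p below 0.05 (share of all genes not given), and without any other single female none had. Between VDD LF and VDD HF females 37 of the 39 genes that passed the filter were higher (Bub1 did not pass), 20 with an unadjusted p below 0.05 against 2.51% of all genes, with a median of 0.80. None was called and 0% of all genes were. Mki67 differed by 1.81 ± 0.38, Top2a by 1.58 ± 0.44 and Cenpe by 1.29 ± 0.38, each with an adjusted p of 0.84. The count of 20 was 5 without VDD HF female 2081 or 2121 (the adrenal-rich library of this pair), 8 without VDD LF female 2311, 12 without 2303 and 13 without 2312.

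The interaction of the mother's and the offspring's diet in females called no gene (0% of all genes), and no cell cycle gene had an unadjusted p below 0.05. The smallest were 0.17 for Rrm1 (-0.42 ± 0.28), 0.18 for Mki67 (0.78 ± 0.55) and 0.19 for Mcm6 (-0.50 ± 0.36). The median was 0.05, and 0.48 without the adrenal-rich and 0.69 without the muscle-rich libraries. Rrm1 had 266, 311 and 325 normalized reads in CTRL LF, 260.2, 300.3 and 396 in VDD LF, 348, 425 and 565 in CTRL HF and 313, 337 and 379.9 in VDD HF females. The diet difference of males minus that of females gave a median of 0.14, and no cell cycle gene was called, where 0.0272% of all genes were. Mcm7 (-0.38 ± 0.16, unadjusted p = 0.031), E2f1 (0.69 ± 0.31, unadjusted p = 0.038) and Birc5 (0.99 ± 0.47, unadjusted p = 0.047) had the smallest p, with adjusted p from 0.50 to 0.55. A larger HF difference in males than in females was therefore not shown for these genes. Without the adrenal-rich libraries the median of this term was 0.57.

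Female offspring of VDD mothers had lower levels of most cell cycle genes, though no single gene passed the adjusted test. In females, averaged over both offspring diets, 39 of the 40 genes were lower in the VDD groups, with a median of -0.84 against -0.006 over all genes. At an unadjusted p below 0.05, 31 were lower, where 12.4% of all genes were. None was called (0% of all genes), and the smallest adjusted p were 0.051 for Mki67 (-1.41 ± 0.27), 0.053 for Bub1b (-0.93 ± 0.19) and 0.053 for Top2a (-1.60 ± 0.33). No cell cycle gene had all 6 VDD females below all 6 CTRL females, where 0.631% of all genes did. Without VDD LF female 2312, 13 genes were lower at an adjusted p below 0.05, without VDD HF female 2121 9 and without VDD HF female 2081 7, with no share of all genes beside them. Without the adrenal-rich libraries, with 1 CTRL HF female left, the median was -0.58 and the count of 31 was 12, and without the muscle-rich libraries they were -0.65 and 21.

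All 9 mitotic kinase and checkpoint genes, all 8 spindle and cytokinesis genes and both chromatin genes were lower in VDD females at an unadjusted p below 0.05, as were 5 of 8 regulators, 5 of 8 licensing genes and 2 of 5 replication and nucleotide genes. The chromatin and spindle groups had the lowest medians, -1.51 and -1.43, with Cenpf at -1.63 ± 0.40, Prc1 at -1.54 ± 0.36 and Kif11, the motor that separates the spindle poles, at -1.52 ± 0.37. Bub1b had 90.5, 102 and 103 normalized reads in females of the CTRL LF group, 50.3, 50.4 and 65.1 in VDD LF, 115, 163 and 260.2 in CTRL HF and 75.5, 79.7 and 94.7 in VDD HF, and under each offspring diet all 3 VDD females were below all 3 CTRL females, as were 9.49% of all genes under LF and 12.2% under HF. Prc1 had 54.7, 58.4 and 95.4 normalized reads (CTRL LF), 15.03, 19.9 and 24.7 (VDD LF), 52.7, 160.1 and 220.4 (CTRL HF) and 26.5, 63.8 and 64.3 (VDD HF) in females, where the VDD LF females were the lowest 3 and CTRL HF female 2291 lay below both other CTRL HF females. Mcm7 was the 1 gene not lower (0.09 ± 0.13), and Pcna (-0.05 ± 0.09), Cdc45 (-0.03 ± 0.15), Cdc6 (-0.07 ± 0.20) and Tyms (-0.12 ± 0.21) stayed near 0.

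Under the LF diet alone, 35 of the 39 genes that passed the filter were lower in VDD than in CTRL females, with a median of -0.83, and 22 had an unadjusted p below 0.05 against 6.53% of all genes. Top2a (-1.82 ± 0.34), Prc1 (-1.73 ± 0.32) and Mki67 (-1.81 ± 0.35) had the smallest p, each with an adjusted p of 0.39, and none was called (0% of all genes). For these 3 genes, and for 24 of the 39, all VDD LF females were below all CTRL LF females, where 9.49% of all genes were, and none of these 6 libraries was rich in adrenal genes. The count of 22 was 12 without CTRL LF female 2124 and 13 without the renal-named libraries. Under the HF diet 38 of 40 were lower, with a median of -0.84 and 13 at an unadjusted p below 0.05 (9.10% of all genes). Mcm6 (-0.88 ± 0.26), Bub1b (-1.01 ± 0.31) and Kif20a (-1.45 ± 0.45) had the smallest p, with adjusted p of 0.20 to 0.21, and none was called (0% of all genes). Mcm6 had 173, 209.6 and 230.1 normalized reads in CTRL LF, 125, 142 and 205 in VDD LF, 275, 339 and 483 in CTRL HF and 151, 194 and 237 in VDD HF females, and Kif20a had 39.8, 44.1 and 58.5 normalized reads in females of the CTRL LF group, 11.3, 14.4 and 26.98 in VDD LF, 65.1, 111 and 149.97 in CTRL HF and 23.5, 33.4 and 61.8 in VDD HF. The count of 13 was 2 without CTRL HF female 2292, 3 without CTRL HF female 2290, 4 without VDD HF female 2083 and 24 without CTRL HF female 2291. For 10 of the 40 genes all VDD HF females were below all CTRL HF females, where 12.2% of all genes were. The count of 13 was 0 without the muscle-rich libraries (2 females a group), where the median was -0.33. Without the adrenal-rich libraries, which left 1 CTRL HF and 2 VDD HF females, the median was -0.36 and the count 0. The adrenal-rich libraries were 2 of the 3 CTRL HF females and 1 of the 3 VDD HF females, and their part in this difference was not tested.

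In males the mother's diet made no difference that passed a test. Averaged over both offspring diets, 24 genes were higher and 16 lower in VDD males, from -0.29 for Cdc20 to 0.85 for Birc5, with a median of 0.10. None was called (0% of all genes), and 1 had an unadjusted p below 0.05, Birc5 (0.85 ± 0.34, unadjusted p = 0.031, adjusted p = 0.52), followed by Tk1 (0.71 ± 0.38) and Ccne2 (0.51 ± 0.31). No gene had all 6 VDD males below all 6 CTRL males (0.0591% of all genes). Under LF 19 of 39 were higher, with a median of -0.01, and the smallest p were those of Birc5 (1.10 ± 0.52), E2f1 (-0.70 ± 0.38) and Mcm7 (0.27 ± 0.15). Under HF 29 of 40 were higher, with a median of 0.23, led by Aurka (0.55 ± 0.26), Tk1 (0.61 ± 0.40) and Rrm1 (0.28 ± 0.18). No gene had an unadjusted p below 0.05 in either pair, and none was called, as 0% of all genes were in each. Without CTRL HF male 2128, the library with the highest level of the set among males, 12 genes were higher in VDD HF males at an unadjusted p below 0.05, and in the average over both diets 5 were. The latter count was 3 without CTRL LF male 2296, 2 without VDD LF male 2302 and 0 or 1 without any other male. Leaving out the CTRL library highest in these genes raises their VDD minus CTRL difference by itself. The share of all genes at that p is not given for these male fits, so the counts show no maternal difference.

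Whether the maternal difference itself depended on sex was tested in a fit over the 24 libraries, which was added after the values had been seen. The VDD minus CTRL difference of males exceeded that of females in 36 of 40 genes, by a median of 0.88 against 0.01 over all 18399 genes, and 21 had an unadjusted p below 0.05 against 3.73% of all genes. None was called (0% of all genes), and the smallest adjusted p was 0.70, for Birc5 (1.77 ± 0.47), Prc1 (1.87 ± 0.54) and Bub1b (1.05 ± 0.32) alike. The count of 21 was 6 without the adrenal-rich libraries and 6 without the muscle-rich libraries, both with groups of 1 library, and the medians were 0.63 and 0.85.

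The sexes were also compared directly. Averaged over the 4 diet groups, 9 genes were higher and 31 lower in males, with a median of -0.10, and no cell cycle gene was called, while 7.30% of all genes were. Bub1b (-0.50 ± 0.16, adjusted p = 0.031) and Tyms (-0.40 ± 0.13, adjusted p = 0.038) were lower in males at an adjusted p below 0.05, as were 10.8% of all genes, and Mcm2 followed (-0.36 ± 0.13, adjusted p = 0.060). This count of 2 lay between 0 and 4 without any 1 library, and was 0 without the adrenal-rich or the muscle-rich libraries, again with groups of 1 library.

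The mean level of the 40 genes per library shows both diets at once. Its group mean, in log2(normalized reads + 1), was 5.33 in CTRL LF, 5.37 in VDD LF, 6.33 in CTRL HF and 6.53 in VDD HF males, and 6.02 in CTRL LF, 5.18 in VDD LF, 6.85 in CTRL HF and 6.04 in VDD HF females. VDD LF females were close together (5.14 to 5.21) and below the lowest CTRL LF female (5.78). CTRL HF males ranged from 5.95 to 6.98, and CTRL HF females from 6.28 to 7.30, the highest being the muscle- and adrenal-rich library 2292.

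**Figure D4:**
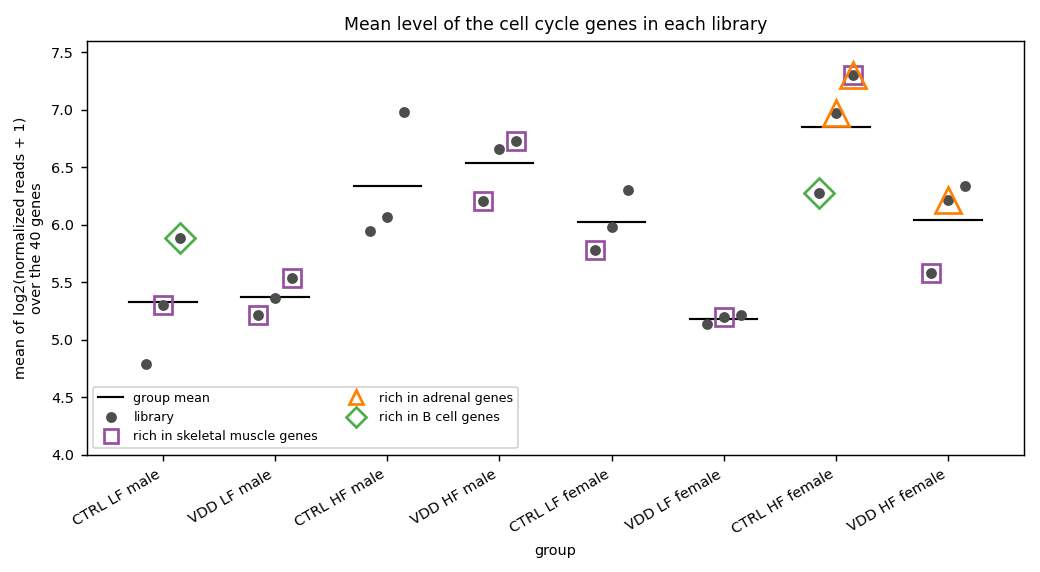
Mean of log2(normalized reads + 1) over the 40 cell cycle genes in each library (points) by group, with group means (lines); squares mark libraries rich in skeletal muscle genes, triangles in adrenal genes and diamonds in B cell genes. The 6 HF males (5.95 to 6.98) lie above the 6 LF males (4.79 to 5.89), and 2 of the 3 CTRL HF females carry a triangle.

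Other genes of the cell cycle, which are no part of the 40, followed the split between mitosis and DNA synthesis. In males, 48 of the 49 other G2 and M phase genes tested were higher under HF (median 1.22) and 12 were called, all higher, where 6.91% of all genes were called, led by the kinetochore genes Spc25 (1.64 ± 0.25) and Nuf2 (2.10 ± 0.35), the mitotic kinase gene Pbk (2.46 ± 0.39) and Cks2 (1.02 ± 0.17), whose product binds cyclin-dependent kinases. Of 40 other G1 and S phase genes tested, 31 were higher (median 0.28) and 2 were called, a share no larger than that of all genes. These were Ccnd1 (1.42 ± 0.24), the cyclin that answers growth signals, and Uhrf1 (1.26 ± 0.26), which maintains DNA methylation. Of 20 genes that hold back the cycle, 5 were higher and 15 lower (median -0.16), and 2 were called, near the share of all genes, both lower: Cdkn1a (-1.79 ± 0.29), the p21 inhibitor of cyclin-dependent kinases, and Btg1 (-0.73 ± 0.13), an antiproliferative gene. In females 49 of 50 G2 and M genes were higher under HF (median 0.87), 33 with an unadjusted p below 0.05 (10.5% of all genes), with Ube2c first (1.14 ± 0.20, adjusted p = 0.041). Under maternal VDD 47 of 50 were lower in females (median -0.95), 32 with an unadjusted p below 0.05 (12.4% of all genes), among them Ckap2l (-1.72 ± 0.33) and Hmmr (-1.85 ± 0.38), while Pttg1 was higher (0.39 ± 0.08). The G1 and S genes had a median of -0.18 there and the braking genes 0.12. Without the muscle-rich libraries 0 of 48 G2 and M genes were called in males, with a median of 1.24 and 29 higher at an unadjusted p below 0.05, and the counts of 33 and 32 in females were 28 and 21. Without the adrenal-rich libraries, with 1 CTRL HF female left and 47 G2 and M genes tested, these were 5 and 9, with medians of 0.43 and -0.57.

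Genes of dividing and non-dividing cell types moved beside the cell cycle genes, and fewer cells of a type and less RNA per cell cannot be told apart in such bulk tissue. In males under HF, where 6.91% of all genes were called, 9 of 10 stromal progenitor genes were higher (2 called, Col3a1 1.75 ± 0.32 and Col1a1 1.76 ± 0.33), as were 8 of 10 genes of lipid-associated macrophages (4 called), 7 of 10 general macrophage genes (0 called, Adgre1 1.10 ± 0.33 and Cd68 1.03 ± 0.28 at an adjusted p below 0.05) and 8 of 8 endothelial genes (0 called). Of 10 adipocyte genes 7 were lower, 2 of them called (Pparg -0.71 ± 0.13 and Cfd -1.65 ± 0.32), and Lep was called higher (3.27 ± 0.37). The summed stromal genes reached 17628 to 68532 normalized reads in LF males and 36377 to 97755 in HF males, and the summed macrophage genes 7248 to 25554 and 12371 to 39025. The sum of the lipid-associated macrophage list overlapped almost throughout, at 131363 to 211543 in LF and 136494 to 258535 in HF males. Its group medians were lower under HF in offspring of CTRL (140948 against 155883) and of VDD mothers (188881 against 205425). This sum lay far above that of the general macrophage list, and a sum follows its most highly expressed genes. It therefore does not give the level of these cells, and 8 of the 10 genes were higher. Without the muscle-rich libraries the calls were 5 stromal, 4 lipid-associated macrophage, 3 macrophage and 0 endothelial genes, with 6 of 8 endothelial genes higher. In females under maternal VDD, 9 of 10 stromal progenitor genes were lower, 8 with an unadjusted p below 0.05 in that direction (12.4% of all genes) and none called (Col1a1 -1.85 ± 0.32, Col3a1 -1.56 ± 0.33), with sums of 33059 to 87385 in CTRL and 18748 to 46066 in VDD females. The count of 8 was 5 without the muscle-rich and 4 without the adrenal-rich libraries. Of 10 macrophage genes 8 were lower, 1 with an unadjusted p below 0.05, and of 8 mesothelial genes 5 were lower, all at that threshold. All 8 brown adipocyte genes were higher, 4 of them at that threshold, for which the share of all genes in the higher direction is not given. Their sum was 273 to 966 in CTRL HF and 3100 to 39697 in VDD HF females. Under LF the ranges overlapped, at 1311 to 10664 in CTRL and 1565 to 10041 in VDD females, with a lower median in VDD (4934 against 7768). The part of these cell types in the cell cycle result was not tested. Without the 2 B cell-rich libraries, the median HF difference was 1.31 in males and 1.03 in females.

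The genes with a CHR in the promoter window had larger median differences under the diets than those without. Under HF the median was 1.32 for the 16 genes with and 0.91 for the 17 without a CHR in males, and 1.06 and 0.66 in females. Under maternal VDD in females it was -0.95 and -0.65. Without the muscle-rich libraries the medians were 1.47 and 0.76 under HF in males, 0.84 and 0.83 under HF in females and -0.84 and -0.55 under VDD in females, so that the difference between the sets was nearly absent for HF in females. Without the adrenal-rich libraries they were 0.52 and 0.45 for HF and -0.68 and -0.54 for VDD in females. This is a description with no test, since most genes with a CHR are genes of mitosis, as in the promoters of Cdk1, Top2a, Kif11 and Cdc20 shown with their sequences. The ranges overlapped widely, from 0.06 to 2.03 with and from -0.36 to 1.99 without a CHR in males under HF.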

How the data were processed

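RNA of retroperitoneal adipose tissue was sequenced after TruSeq stranded mRNA library preparation. Per the labels' processing notes and the study's methods, reads were trimmed (Sickle) and aligned to mm10 by STAR 2.7.0d, unique alignments were counted by featureCounts 1.6.1 on GENCODE genes to which Cufflinks 2.2.1 transcripts had been added, and DESeq2 scaled the counts. The authors deposited 8 pairwise tables whose library columns hold log2 values of normalized reads plus 1. The fold changes and p-values of the authors' own DESeq2 comparisons, which the tables also hold, were not used.

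Normalized reads were obtained by reversing the log2 step. Dividing by the step that 1 read makes gave whole reads (tolerance 0.02) for 100% of the 2730960 values, from which the reads per library (13346779 to 18484346) and size factors over all 24 libraries (17314 genes) were computed. Library columns name a group and a mouse number, and the number identifies a library here. Of 56899 entries, 4 with duplicated names were left out. Because the deposited values are on a log2 scale, limma 3.58.1 with a trended variance (R 4.3.3) was the main test in place of a count test, on log2(normalized reads + 1), for genes with at least 10 normalized reads in 3 libraries. Pairs of groups were fitted on 6 libraries, averaged differences and the interaction of diets on the 12 of a sex, and sex terms on all 24. Adjusted p-values are Benjamini-Hochberg values over all genes tested and two-sided, and a gene was called at an adjusted p below 0.01 with a fold change above 1.5 or below 0.66. The fits were also run on simulated reads. There the genes varied independently, and less between libraries than genes such as Mki67 did here, so that run does not vouch for these results. Alternatives were a pseudocount of 10, no filter, trimmed mean scaling, limma-voom on the recovered reads, a fit over the 12 libraries of the sex, leaving out each library in turn, leaving out libraries named renal and, added after the values were seen, libraries rich in genes of other tissues.

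Values in every library are given for 12 genes (Mki67, Top2a, Cdk1, Ccnb1, Birc5, Mcm2, Mcm5, Pcna, Rrm2, Tyms, E2f1 and Foxm1) and for the 3 genes of smallest p in a comparison, in at least 1 sex. Other members are given by role, and genes of the other cell cycle lists by smallest p. The members and lists were chosen with earlier results of these data known. Promoter windows come from RefSeq on GRCm38.p6, the assembly of mm10. Figures were drawn with Python 3.11.15 and matplotlib 3.10.9.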

Additional observations from a re-analysis of the deposited data

How the results depend on the processing

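No paired analysis was possible because the sample titles carry replicate numbers while the library columns carry mouse numbers, so that columns map to groups only. Under the alternatives, 296 medians of the 40 genes moved by less than 1 SD between libraries of a group and 8 by more. Of the values of single named genes, 1063 kept direction and side of the threshold, 66 no longer passed it, 9 newly passed it and 6 changed sign. Only the 8 genes called for HF in males could lose a call, and all 66 losses were theirs. Most of the 1063 belonged to genes that were not called and stayed so, and therefore do not show that calls are stable. The alternatives without tissue-rich libraries were chosen after the data were seen, and they also leave fewer libraries in each fit.
In the fit over the 12 libraries of the sex, 2 genes were called between VDD LF and VDD HF males, and 22 were lower at an unadjusted p below 0.05 in VDD than CTRL HF females. Without libraries named renal, counts at that p were 11 (VDD LF against VDD HF males), 13 (VDD LF against VDD HF females) and 13 (CTRL LF against VDD LF females). Without muscle-rich libraries, 0 genes were called for HF in males, where 1 library was left in each VDD group, the median for CTRL LF against CTRL HF females was 0.45 with 5 genes at that p, that for CTRL HF against VDD HF females -0.33 with 0, the median interaction in females 0.69, and the sex by maternal diet count 6. VDD LF against VDD HF males could not be fitted. Without adrenal-rich libraries, in fits that keep 1 CTRL HF female (assumed to vary like the other groups) except between VDD LF and VDD HF females, the medians and counts were 0.25 and 0 (CTRL LF against CTRL HF females), -0.36 and 0 (CTRL HF against VDD HF females), and 0.48 and 5 (HF in females), the counts 5 (VDD LF against VDD HF females), 12 (VDD in females) and 6 (sex by maternal diet), and the medians 0.48 (interaction in females) and 0.57 (sex by offspring diet). Without B cell-rich libraries, 15 genes were called for HF in males and 24 were lower in VDD than CTRL HF females.
Leaving out 1 library at a time gave 1 to 15 calls for HF in males and, at an unadjusted p below 0.05, 7 to 27 genes (CTRL LF against CTRL HF males), 9 to 33 (the same in females), 5 to 23 (VDD LF against VDD HF females), 12 to 22 (CTRL LF against VDD LF females) and 2 to 24 (CTRL HF against VDD HF females). Pcna under HF in males, near 0 throughout, was -0.054 without muscle-rich libraries and -0.047 to 0.032 without 1 library. Tyms under VDD in females was 0.10 without muscle-rich libraries and -0.27 to 0.067 without 1 library. Beyond the fewer libraries, the cause of these moves was not tested. Genes with under 10 normalized reads in some libraries are limited by depth.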
